A study of Mus musculus with 12 samples.

Results

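The genes described here encode the TAM receptor kinases MERTK, AXL and TYRO3, their ligands GAS6 and protein S (Pros1), and 5 further proteins through which dying cells are recognised and taken up, namely TIM4 (Timd4), MEGF10, the integrin alpha V subunit (Itgav), MFG-E8 (Mfge8) and the low density lipoprotein receptor-related protein LRP1. They are 10 of the 18820 genes that had a transcript cluster with a single gene symbol on Affymetrix Mouse Gene ST arrays, and each was represented by 1 cluster. They were chosen by name for their known roles, at a time when some results of these data were known.

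The arrays measured total RNA of whole hippocampus and of ileum with Peyer's patch and surrounding mucosa from FIRE -/- and FIRE +/+ mice of the strain C57BL/6J/CBA, all 6 weeks old and perfused with saline. FIRE (the fms-intronic regulatory element) is an enhancer inside the Csf1r gene, which encodes the receptor for the macrophage growth factors CSF1 and IL-34. FIRE -/- mice lack it on both alleles and descend from a single male founder, and FIRE +/+ mice are wild type at this site. Each tissue had 3 FIRE -/- arrays (labelled 1 male and 2 female) and 3 FIRE +/+ arrays (labelled 2 male and 1 female), with array medians between 4.29 and 4.46 on the log2 scale. The labels do not say if hippocampus and ileum came from the same animals, and p-values measure the spread between these arrays.

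Cells dying by apoptosis expose the lipid phosphatidylserine on their surface. MERTK, AXL and TYRO3 do not touch this lipid themselves: GAS6 and protein S bind it through a vitamin K-dependent domain and link it to the kinases, and MFG-E8 links it to integrins that contain the alpha V chain. TIM4 binds phosphatidylserine directly. MEGF10 acts as an engulfment receptor in astrocytes, and LRP1 in astrocytes and many other phagocytes. In the brain MERTK is found in microglia and astrocytes and TYRO3 mainly in neurons, while in the gut these proteins are carried by macrophages, epithelium and stroma, so that a whole-tissue value sums several cell types.

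The promoters of the TAM kinases and of Timd4 are shown because the 3 kinases differed in direction between the tissues and Timd4 was lower in hippocampus, as described further on. Each sequence is the RefSeq window of 300 bases on GRCm38.p6, running from 250 bases before to 50 bases after the transcript start, and is written 5' to 3' on the strand of the gene with every CG dinucleotide in capitals. The windows lie at chr2:128698665-128698964 (plus strand) for Mertk, chr7:25788684-25788983 (minus strand) for Axl, chr2:119799264-119799563 (plus strand) for Tyro3 and chr11:46810549-46810848 (plus strand) for Timd4.
Mertk: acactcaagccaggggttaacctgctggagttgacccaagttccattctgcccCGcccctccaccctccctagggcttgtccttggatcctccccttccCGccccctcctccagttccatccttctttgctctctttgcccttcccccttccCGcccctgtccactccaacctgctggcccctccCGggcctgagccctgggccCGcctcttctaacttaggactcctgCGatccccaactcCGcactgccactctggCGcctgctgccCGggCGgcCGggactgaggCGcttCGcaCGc
Axl: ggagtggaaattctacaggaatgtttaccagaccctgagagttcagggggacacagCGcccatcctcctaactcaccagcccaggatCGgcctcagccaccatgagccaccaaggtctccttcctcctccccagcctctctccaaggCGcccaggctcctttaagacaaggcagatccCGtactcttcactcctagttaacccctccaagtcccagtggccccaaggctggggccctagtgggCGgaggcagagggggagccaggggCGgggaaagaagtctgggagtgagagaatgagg
Tyro3: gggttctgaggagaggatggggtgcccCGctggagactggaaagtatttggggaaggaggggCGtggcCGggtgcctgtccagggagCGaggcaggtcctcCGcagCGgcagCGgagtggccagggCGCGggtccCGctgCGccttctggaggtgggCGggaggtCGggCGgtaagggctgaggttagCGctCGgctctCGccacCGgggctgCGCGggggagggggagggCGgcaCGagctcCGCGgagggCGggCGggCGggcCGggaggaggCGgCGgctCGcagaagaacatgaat
Timd4: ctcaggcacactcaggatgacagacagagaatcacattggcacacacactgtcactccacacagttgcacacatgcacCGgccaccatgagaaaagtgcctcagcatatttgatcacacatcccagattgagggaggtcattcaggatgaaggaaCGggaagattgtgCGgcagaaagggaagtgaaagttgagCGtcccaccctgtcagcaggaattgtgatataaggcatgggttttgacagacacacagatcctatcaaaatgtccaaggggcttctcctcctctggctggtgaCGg
The Tyro3 window held 31 CG dinucleotides, more than in 89.4% of all 32851 promoter windows of this length, against 14 in Mertk, 6 in Axl and 5 in Timd4. The median over all windows was 7. The GC box GGGCGG, read on both strands, occurred 6 times in the Tyro3 window, 4 times in Mertk, 2 times in Axl and not in Timd4, and 35.7% of all windows held at least 1. The element TATAA, read on both strands, was found in the Timd4 window alone among the 9 genes with a window, and in 24.9% of all windows. Over these 9 genes GC content was lowest in Timd4 (50.7%) and highest in Tyro3 (73.3%).

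Csf1r, the gene whose enhancer was deleted, had log2 signals of 3.58, 3.69 and 3.65 in FIRE -/- hippocampus, against 8.34, 8.31 and 8.15 in FIRE +/+ hippocampus. The groups were far apart, with a log2 difference of -4.63 (standard error 0.09, limma adjusted p = 8.77e-07). Of 9 measured microglia markers, Csf1r among them, 6 fell. The mean of all 9 lay between 3.72 and 3.96 in FIRE -/- hippocampus and between 6.02 and 6.29 in FIRE +/+ hippocampus. The mean of 10 astrocyte markers lay between 9.64 and 9.69 in FIRE -/- and between 9.51 and 9.64 in FIRE +/+ hippocampus, and none of them passed the test (1 at an unadjusted p under 0.05). One array went against its labelled sex: FIRE -/- hippocampus replicate 2, labelled female, had 2.44 for Xist and 6.18 for the Y-linked Eif2s3y. Choroid plexus markers averaged 5.27 on 1 FIRE +/+ hippocampus array (replicate 2) and 7.51 to 8.47 on the other 5. In the ileum, array F09 (FIRE -/- replicate 1) and array D09 (FIRE +/+ replicate 2) carried far more B cell transcripts than the other 4. Their marker means were 7.73 and 7.57. Those of the other 4, 3.23 to 3.54, lay below every array median.

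In the hippocampus, the comparison of genotypes asks whether the clearance genes follow the loss of microglial transcripts. None of the 10 genes rose or fell in FIRE -/- hippocampus by limma at an adjusted p of 0.05. Over all 21218 clusters tested, 0.448% were lower and 0.00% were higher. At an unadjusted p under 0.05 Mertk alone differed, and a one-way analysis of variance without moderation also called none of the 10. The median log2 difference of the 10 genes was -0.02, beside 0.01 over all clusters. The plot of the 10 genes on each array shows how closely most genotypes lay together.

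**Figure D1:**
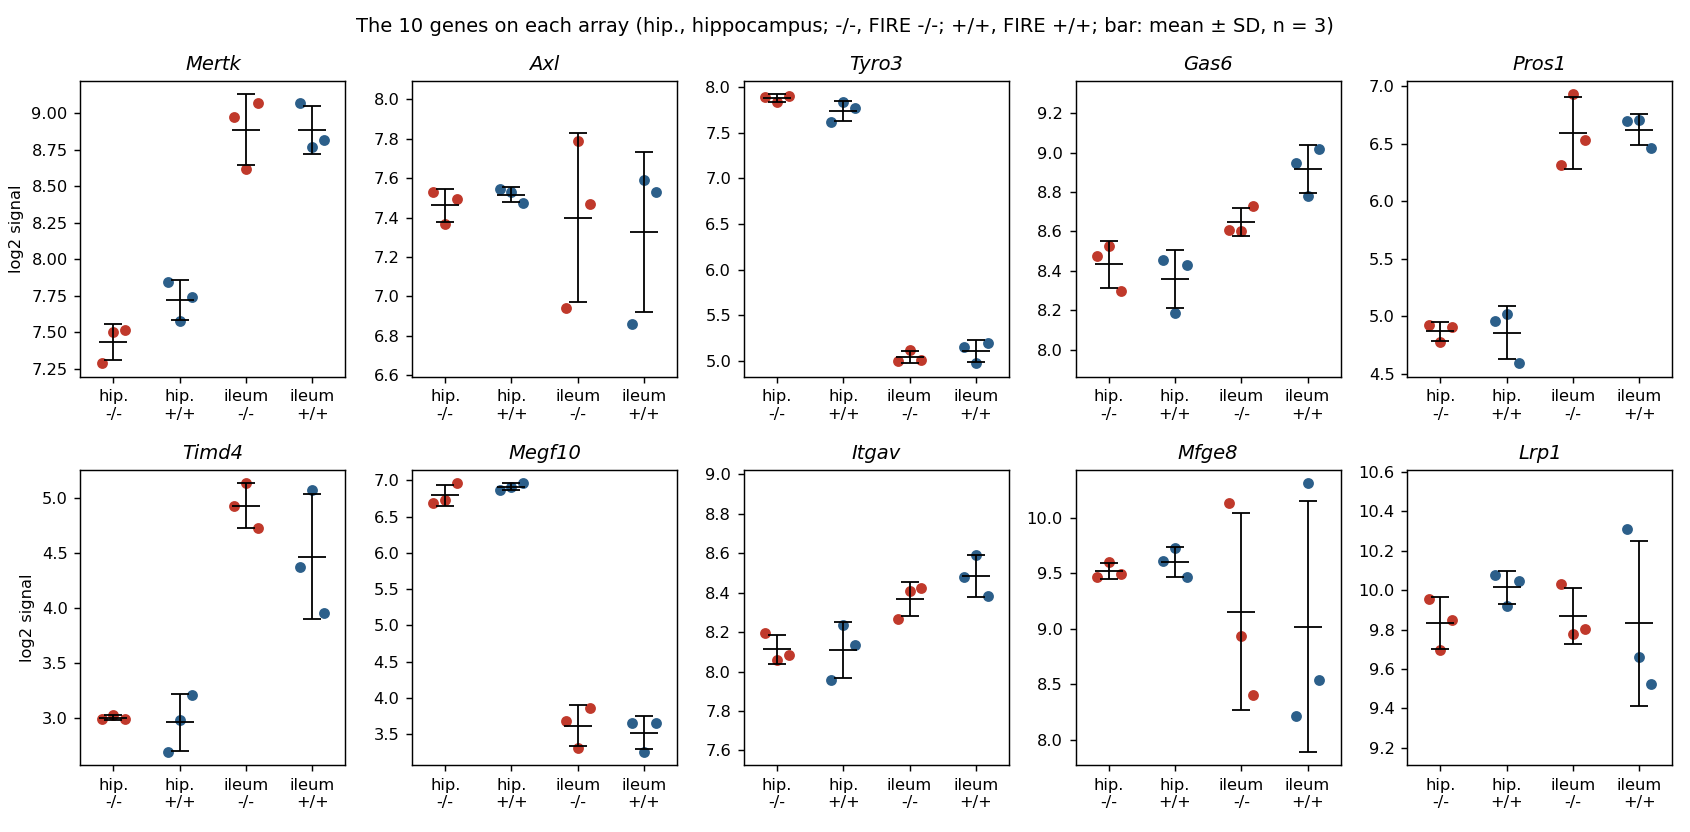
Log2 signal (vertical axis) of the 10 clearance genes on each array, 1 panel per gene, with 3 points per group for FIRE -/- (red) and FIRE +/+ (blue) in hippocampus and ileum, and bars for the mean and SD. Tyro3 and Megf10 lay higher in hippocampus, Mertk, Pros1 and Timd4 lay higher in ileum, and the genotypes lay close together in most panels.

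Mertk, the TAM kinase best known from phagocytes, had log2 signals of 7.29, 7.50 and 7.51 in FIRE -/- hippocampus, against 7.84, 7.58 and 7.74 in FIRE +/+ hippocampus. All 3 FIRE -/- arrays lay below the lowest FIRE +/+ array, by a narrow margin. The log2 difference was -0.29 (standard error 0.11, 95% confidence interval -0.54 to -0.04, limma adjusted p = 0.959), which places Mertk at 81.9% of its FIRE +/+ level, with an interval of 68.8% to 97.4%. Csf1r stood at 4.05% or less of its FIRE +/+ level, an upper limit because its FIRE -/- signals lay below every array median. Among the 4 hippocampus arrays that share the code number 07 in their titles, 1 FIRE -/- and 3 FIRE +/+, the Mertk log2 difference was -0.21 (given without a test, since a lone FIRE -/- array adds nothing to the spread).

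Tyro3, the TAM kinase of neurons, had log2 signals of 7.90, 7.83 and 7.91 in FIRE -/- hippocampus and 7.62, 7.83 and 7.77 in FIRE +/+ hippocampus. The FIRE -/- arrays all lay above the FIRE +/+ arrays, although the nearest pair was equal to 2 decimals. The log2 difference was 0.14 (standard error 0.09, 95% confidence interval -0.07 to 0.35, limma adjusted p = 0.992). Mertk and Tyro3 were thus the 2 of 10 genes whose arrays did not overlap between the genotypes, and 9.66% of all clusters had arrays that did not overlap.

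Axl, a TAM kinase that is induced by inflammatory signals in many phagocytes, had log2 signals of 7.53, 7.37 and 7.49 in FIRE -/- and 7.55, 7.53 and 7.48 in FIRE +/+ hippocampus. The groups overlapped, and the log2 difference of -0.05 had a 95% confidence interval of -0.25 to 0.14. Gas6, a ligand of all TAM kinases, had 8.47, 8.53 and 8.30 in FIRE -/- and 8.45, 8.19 and 8.43 in FIRE +/+ hippocampus, again overlapping. Pros1, the protein S gene, overlapped as well, with a log2 difference of 0.01 (95% confidence interval -0.28 to 0.31). The 95% confidence interval of Gas6 ran from -0.18 to 0.33 on the log2 scale, so that neither ligand differed beyond its spread.

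For the other receptors and bridging molecules the genotypes overlapped in the hippocampus. Lrp1 had log2 signals of 9.96, 9.70 and 9.85 in FIRE -/- and 10.08, 9.92 and 10.05 in FIRE +/+ hippocampus, a log2 difference of -0.18 (95% confidence interval -0.41 to 0.05). The astrocyte receptor gene Megf10 had a log2 difference of -0.12 (-0.35 to 0.11), Mfge8 one of -0.08 (-0.31 to 0.15) and Itgav one of 0.00 (-0.23 to 0.24). Timd4, a gene of resident macrophages, lay between 2.99 and 3.03 in FIRE -/- and between 2.69 and 3.20 in FIRE +/+ hippocampus. These Timd4 values were below every array median, and a change of so dim a signal would be understated.

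In bulk tissue fewer cells of a type and less RNA per cell cannot be told apart, and 3 arrays a group limit the precision. An exact two-sided permutation test of 3 against 3 arrays cannot go below p = 0.1.

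**Figure D2:**
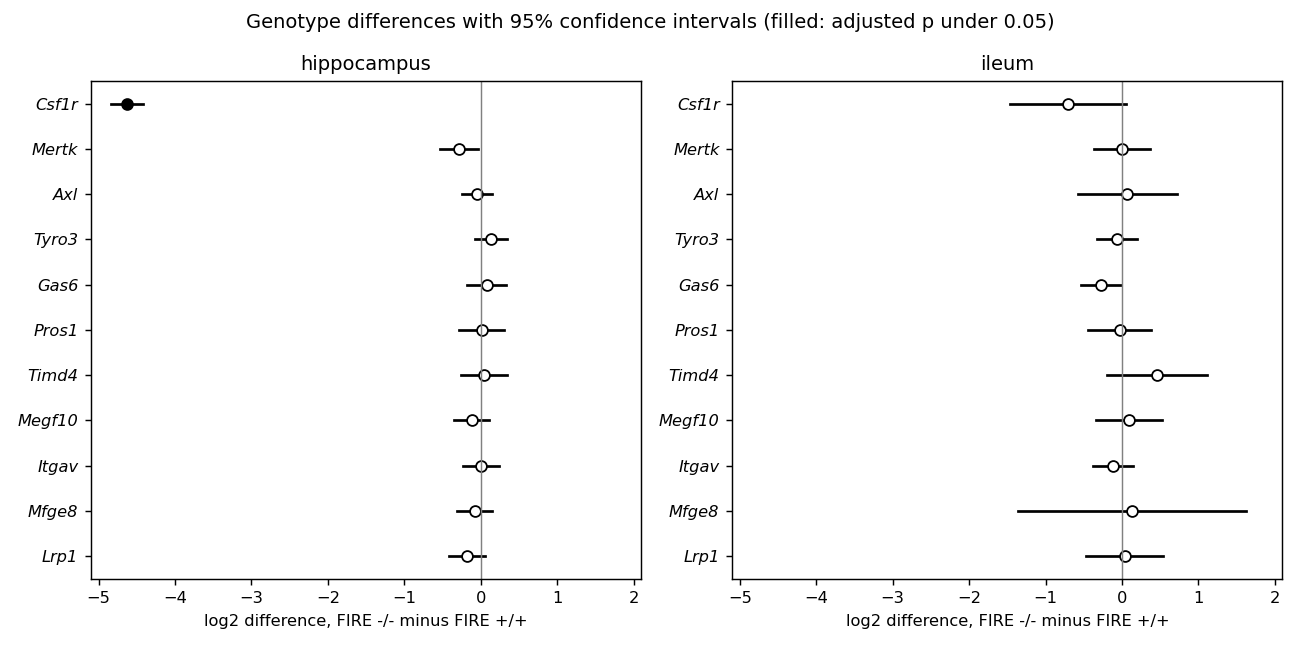
Log2 difference, FIRE -/- minus FIRE +/+ (horizontal axis), with its 95% confidence interval for Csf1r and the 10 clearance genes in hippocampus (left) and ileum (right), filled where the adjusted p was under 0.05. Csf1r in hippocampus, at -4.63, is the only filled point, and Mfge8 in ileum has the widest interval, -1.36 to 1.63.

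Other genes of the clearance machinery moved in the same hippocampus arrays. Of 118 measured genes in 8 lists, 12 fell in FIRE -/- hippocampus and 0 rose, beside 0.448% lower and 0.00% higher of all clusters. The list genes were chosen with earlier results known, and several are genes of microglia. Among 20 other phosphatidylserine and scavenger receptors 3 fell: Trem2, a lipid-sensing receptor of microglia (log2 difference -2.27), its adaptor Tyrobp (-2.11) and Havcr2, which encodes TIM3 (-1.16; limma adjusted p = 6.35e-05, 0.000590 and 0.0407). The Havcr2 call was lost when any single array was left out. The median of this list was -0.15. In FIRE -/- hippocampus Tyrobp (mean 3.62) and Havcr2 (3.16) lay below every array median, so the sizes of their falls are lower limits. Trem2 (4.31) lay within the range of array medians there, where a fall may be understated.

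Among 17 other bridging molecules and opsonins 3 fell, all subunits of complement C1q, which coats dying cells and synapses. The log2 difference was -3.16 for C1qb, -3.06 for C1qc and -2.73 for C1qa, while the list median was 0.04. C1qa had log2 signals of 4.35, 4.75 and 3.90 in FIRE -/- and 7.11, 6.94 and 7.14 in FIRE +/+ hippocampus, so that the groups were widely separated where Gas6, Pros1 and Mfge8 overlapped. Its FIRE -/- mean of 4.33 lay within the range of array medians, where a fall may be understated.

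Among 22 genes of engulfment signalling 3 fell: Dock2, an activator of the GTPase RAC in blood-derived cells (log2 difference -1.51), the haematopoietic GTPase gene Rac2 (-1.31) and the exchange factor gene Vav1 (-0.88). With 1 array left out the Rac2 call was lost in 2 of 6 fits (highest adjusted p = 0.0566) and the Vav1 call in 3 of 6 (0.0600). Dock2 (mean 3.26) and Rac2 (3.58) lay below every array median in FIRE -/- hippocampus, and the sizes of their falls are lower limits. Among 18 genes of phosphatidylserine exposure and of find-me or do-not-eat signals 3 fell: the fractalkine receptor gene Cx3cr1 (-3.48) and the nucleotide receptor genes P2ry12 (-2.03) and P2ry6 (-1.57). The FIRE -/- means of P2ry12 and P2ry6 lay below every array median, so the sizes of their falls are lower limits too. Cx3cr1 and P2ry12 are also used here as microglia markers. None of the 5 integrin beta partners of Itgav or the 10 genes of the LDL receptor family and the Lrp1 chaperone passed the test. Nor did any of the 13 genes of vitamin K carboxylation, shedding and TAM signalling or the 13 of lipid sensing and digestion. In these lists, in this order, 2, 0, 1 and 0 genes had an unadjusted p under 0.05. Without moderation 4 of the 118 genes fell.

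Itgb5, whose product pairs with the integrin alpha V chain to bind MFG-E8, came closest among these. It had log2 signals of 7.47, 7.48 and 7.46 in FIRE -/- and 8.19, 7.91 and 8.16 in FIRE +/+ hippocampus. The groups did not overlap, with a log2 difference of -0.62 (standard error 0.10, limma adjusted p = 0.0605), while its partner Itgav did not differ beyond its spread. Itgb5 passed under 3 of 17 alternatives, with a lowest adjusted p of 0.00949, and its adjusted p reached 0.309 with 1 array left out. The largest differences in the other 3 lists were -0.15 for Lrp2, -0.28 for Pik3cd and 0.20 for Lamp2.

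**Figure D3:**
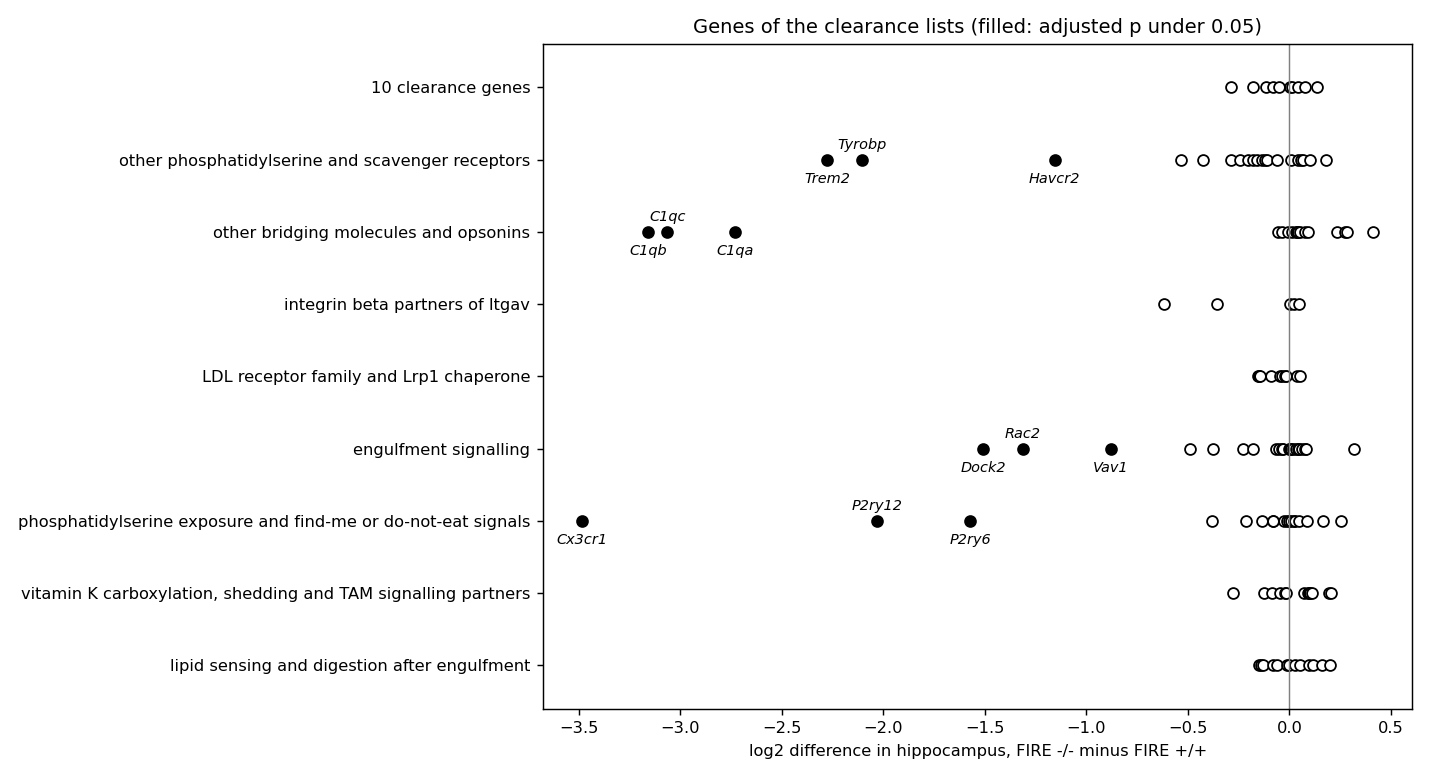
Log2 difference in hippocampus, FIRE -/- minus FIRE +/+ (horizontal axis), of each measured gene of the 10 clearance genes and of 8 further lists (rows), filled and named where the adjusted p was under 0.05. The 10 clearance genes lie between -0.29 and 0.14, while 12 genes of 4 other lists lie between -3.48 and -0.88.

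In the ileum none of the 10 genes rose or fell in FIRE -/- mice by limma, against 0.00% lower and 0.00% higher of all clusters tested. At an unadjusted p under 0.05 Gas6 alone differed, and the analysis of variance without moderation called none. The median log2 difference of the 10 genes was 0.02, beside -0.01 over all clusters. Csf1r itself had 6.44, 7.53 and 6.86 in FIRE -/- and 7.41, 8.17 and 7.39 in FIRE +/+ ileum, with overlapping arrays and a log2 difference of -0.71 (adjusted p = 0.999).

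Gas6 had log2 signals of 8.61, 8.60 and 8.73 in FIRE -/- ileum, against 8.95, 8.78 and 9.02 in FIRE +/+ ileum. All FIRE -/- arrays lay below all FIRE +/+ arrays. The log2 difference was -0.27 (standard error 0.11, 95% confidence interval -0.53 to -0.01, limma adjusted p = 0.999), or 82.9% of the FIRE +/+ level with an interval of 69.1% to 99.3%. Gas6 was the 1 gene of the 10 without overlap in the ileum, where 8.04% of all clusters had arrays that did not overlap.

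Timd4 had log2 signals of 4.92, 5.13 and 4.73 in FIRE -/- ileum and 4.37, 5.07 and 3.95 in FIRE +/+ ileum. One FIRE +/+ array, D09, reached the FIRE -/- range, so that the groups overlapped. The log2 difference of 0.46 had a 95% confidence interval of -0.20 to 1.12. With 1 array left out it ranged over 0.20 (without the FIRE +/+ array E09) to 0.77 (without D09), and no such fit called it.

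Mertk averaged 8.89 ± 0.24 in FIRE -/- and 8.89 ± 0.16 in FIRE +/+ ileum (SD, n = 3 each), and the log2 difference of 0.00 had a 95% confidence interval of -0.37 to 0.37. Tyro3 averaged 5.04 ± 0.07 in FIRE -/- and 5.11 ± 0.12 in FIRE +/+ ileum. Neither kinase differed between the genotypes beyond its spread. Pros1, Megf10 and Itgav overlapped too, with log2 differences of -0.03, 0.09 and -0.12.

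Axl and Lrp1 varied among the ileum arrays in a way that crossed the genotypes. Axl was low on the FIRE -/- array F09 (6.94) and the FIRE +/+ array C09 (6.86) and lay between 7.47 and 7.79 on the other 4. The same arrays had the highest Lrp1 signals, 10.03 on F09 and 10.31 on C09, against 9.52 to 9.80 on the others. They also had the lowest means of 9 intestinal macrophage markers, 5.26 on F09 and 5.54 on C09 (others 5.73 to 6.09), and the highest means of 6 enterocyte markers, 10.98 and 10.84 (others 9.98 to 10.73). The part of these markers in the Axl and Lrp1 values was not tested.

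Mfge8 had the widest spread of the 10 genes in the ileum. It had log2 signals of 10.13, 8.93 and 8.40 in FIRE -/- ileum, against 8.21, 10.31 and 8.53 in FIRE +/+ ileum. One array of each genotype, F09 and D09, stood far above the other 4, and the groups overlapped with a log2 difference of 0.13 (95% confidence interval -1.36 to 1.63). These were the arrays rich in B cell transcripts, and the mean of 4 markers of follicular dendritic cells and lymphoid stroma was 7.77 on F09 and 7.60 on D09, against 4.15 to 4.76 on the others. Among them Cr2, a complement receptor gene, reached 7.06 on F09 and 6.52 on D09, while it stayed between 2.30 and 2.44 elsewhere. Cr2 is also one of the B cell markers used here, so that both marker means contain it. Follicular dendritic cells are known to secrete MFG-E8, and their part in the Mfge8 values was not tested.

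**Figure D4:**
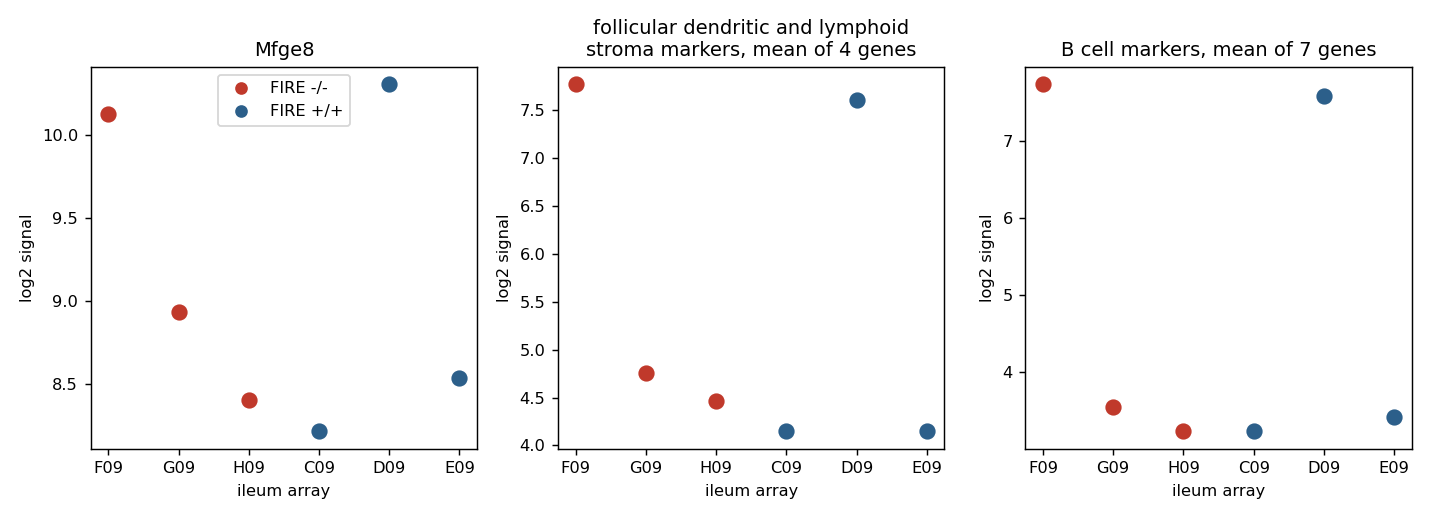
Log2 signal (vertical axes) of Mfge8, of the mean of 4 follicular dendritic and lymphoid stroma markers and of the mean of 7 B cell markers on each ileum array (horizontal axis), with FIRE -/- in red and FIRE +/+ in blue. The arrays F09 and D09, 1 of each genotype, are highest in all 3 panels, with 10.13 and 10.31 for Mfge8. Both marker means include Cr2.

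No gene of the 8 clearance lists rose or fell in FIRE -/- ileum by limma or without moderation, and each list had at most 1 gene at an unadjusted p under 0.05. The largest log2 difference was 0.36 for the scavenger receptor gene Marco, -0.52 for Anxa1, 0.57 for the integrin gene Itgb8, 0.26 for Sorl1, 0.75 for the lipid exporter gene Abca1, -0.79 for P2ry6, 0.68 for Socs3 and -0.35 for Ppard, each in its own list.

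The genotype differences of the 10 genes were then set against each other between tissues in a fit of all 12 arrays. None of the 10 differed between hippocampus and ileum, where 0.0895% of all clusters had a lower and 0.00% a higher genotype difference in the hippocampus. At an unadjusted p under 0.05 Gas6 alone differed, by 0.35 (95% confidence interval 0.01 to 0.68), with no call after adjustment, and the analysis without moderation called none. For Mertk the difference between tissues was -0.29 (95% confidence interval -0.72 to 0.14), so that its lower hippocampal values were not shown to be particular to the brain. By contrast Csf1r, Trem2, Tyrobp, C1qa and Cx3cr1 differed, by -3.92, -2.27, -2.29, -2.69 and -3.10. Trem2 averaged 4.43 in ileum of both genotypes, within the range of array medians, where a fall would be understated.

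The larger contrasts among the 10 genes lay between the tissues. In FIRE -/- mice 2 genes were higher and 4 lower in hippocampus than in ileum, against 29.5% and 31.8% of all clusters. In FIRE +/+ mice 2 were higher and 5 lower, against 28.7% and 31.1% of all clusters. All FIRE +/+ hippocampus arrays carried the code number 07 in their titles and no FIRE +/+ ileum array did. Tissue and code number therefore cannot be told apart in FIRE +/+ mice. Among FIRE -/- arrays 1 of hippocampus and none of ileum carried this code number. The arrays of the tissues did not overlap for 7 of 10 genes in either genotype, a state shared by 68.8% of all clusters in FIRE -/- and 64.0% in FIRE +/+ mice, so that the counts stood near the background and the content lies in which gene went which way.

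The TAM kinases went 3 ways. Tyro3 averaged 7.88 ± 0.04 in hippocampus and 5.04 ± 0.07 in ileum of FIRE -/- mice (SD, n = 3 each), and was higher in hippocampus by 2.83 on the log2 scale, or 7.13-fold (limma adjusted p = 7.12e-11). In FIRE +/+ mice it averaged 7.74 ± 0.11 in hippocampus and 5.11 ± 0.12 in ileum, a difference of 2.63 or 6.20-fold. Mertk was lower in hippocampus, with log2 differences of -1.46 in FIRE -/- and -1.16 in FIRE +/+ mice, or 2.74-fold and 2.24-fold (adjusted p = 1.30e-06 and 1.05e-05). Axl did not differ between the tissues beyond its spread, with log2 differences of 0.06 (95% confidence interval -0.41 to 0.54) in FIRE -/- and 0.19 (-0.28 to 0.66) in FIRE +/+ mice.

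The TAM ligands leaned towards the ileum. Pros1 was lower in hippocampus in both genotypes. It lay between 4.78 and 4.93 in hippocampus and between 6.32 and 6.93 in ileum of FIRE -/- mice, a log2 difference of -1.72 (adjusted p = 1.07e-06), and the difference in FIRE +/+ mice was -1.76 (adjusted p = 8.76e-07). Gas6 had a log2 difference of -0.21 in FIRE -/- mice (adjusted p = 0.111), where all hippocampus arrays lay below all ileum arrays, and was lower in hippocampus of FIRE +/+ mice, with a log2 difference of -0.56 (adjusted p = 0.000658). That the tissue difference of Gas6 itself depended on genotype was not shown, as given above.

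Among the receptors Megf10 was higher in hippocampus. It lay between 6.69 and 6.96 in hippocampus and between 3.31 and 3.86 in ileum of FIRE -/- mice, and between 6.87 and 6.96 in hippocampus and 3.26 and 3.65 in ileum of FIRE +/+ mice. The log2 difference was at least 3.18 in FIRE -/- and at least 3.39 in FIRE +/+ mice, lower limits because the ileum signals lay below every array median. Timd4 went the other way, with measured log2 differences of -1.92 in FIRE -/- and -1.51 in FIRE +/+ mice (adjusted p = 1.35e-05 and 0.000117). All its hippocampus signals lay below every array median, so that the size of its difference is likewise a lower limit.

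Itgav was slightly lower in hippocampus, with log2 differences of -0.25 in FIRE -/- and -0.38 in FIRE +/+ mice (adjusted p = 0.0472 and 0.00663). The call in FIRE -/- mice was lost under 10 of 22 alternatives, among them 7 of the 12 fits that left out 1 array, and its adjusted p ranged over 0.0296 to 0.172. Lrp1 did not differ beyond its spread in either genotype, with log2 differences of -0.04 in FIRE -/- and 0.18 in FIRE +/+ mice. Without the FIRE +/+ ileum array C09 the Lrp1 difference in FIRE +/+ mice was 0.42 (adjusted p = 0.0107).

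Mfge8 showed no tissue difference beyond its spread over all arrays, 0.37 in FIRE -/- and 0.58 in FIRE +/+ mice (adjusted p = 0.552 and 0.346). Without F09 and D09 it was higher in hippocampus by 0.86 in FIRE -/- and by 1.23 in FIRE +/+ mice (adjusted p = 0.00103 and 7.84e-05). These were also the arrays of highest Mfge8 signal, so that leaving them out by itself moves the difference this way. With 1 array left out the lowest adjusted p was 0.145 in FIRE -/- and 0.0145 (without D09) in FIRE +/+ mice.

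**Figure D5:**
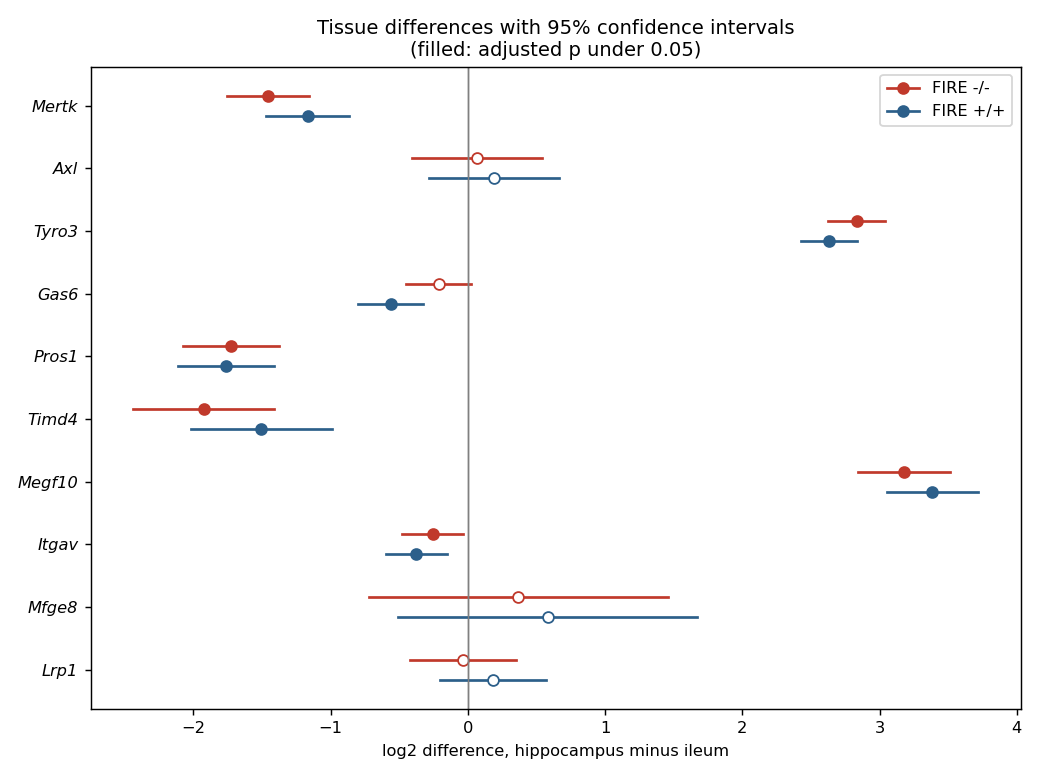
Log2 difference, hippocampus minus ileum (horizontal axis), with its 95% confidence interval for each of the 10 clearance genes in FIRE -/- (red) and FIRE +/+ (blue) mice, filled where the adjusted p was under 0.05. Tyro3 and Megf10 lie to the right, at 2.83 and at least 3.18 in FIRE -/- mice, and Mertk, Pros1 and Timd4 to the left of 0.

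Partners of the 10 genes were also divided between the tissues, shown here for FIRE +/+ mice, where 28.7% of all clusters were higher and 31.1% lower in hippocampus. In these mice tissue and code number coincide, as given above. Of the 29 list genes named for this comparison, 10 (Itgb8, Itgb6, Itgb3, Lrp1b, Cd36, Msr1, Elmo3, Syk, Xkr4 and Xkr9) had a mean below every array median in 1 tissue, and the sizes given for them are lower limits. Of the 5 integrin beta partners of Itgav 1 was higher and 4 lower in hippocampus: Itgb8 by 4.70, against -4.80 for Itgb6 and -2.64 for Itgb3. Of the 10 genes of the LDL receptor family and the Lrp1 chaperone 6 were higher and 3 lower. The largest differences were 4.71 for Lrp1b and 3.22 for the reelin receptor gene Lrp8, against -2.64 for Lrp5 and -2.01 for Lrp10. Of the 17 other bridging molecules and opsonins 3 were higher and 7 lower, from 4.73 for Edil3, a relative of Mfge8 that also binds phosphatidylserine, and 2.99 for Clu to -2.69 for Thbs1 and -4.84 for Lgals3. Clu varied widely in FIRE +/+ ileum, from 6.42 to 9.47. With 1 array left out its difference ranged over 2.37 to 3.90 (limma adjusted p up to 0.0332).

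Of the 20 other phosphatidylserine and scavenger receptors 4 were higher and 6 lower in FIRE +/+ hippocampus, led by Adgrb1 (5.30), which encodes the brain receptor BAI1, and Trem2 (2.15), against Cd36 (-4.14) and Msr1 (-1.92). Of the 22 engulfment signalling genes 3 were higher and 11 lower, with 4.59 for Dock4 and 1.71 for Elmo2 against -4.02 for Elmo3 and -3.17 for Syk. Of the 18 genes of phosphatidylserine exposure and find-me or do-not-eat signals 10 were higher and 5 lower, with 3.89 for Xkr4 and 2.97 for Sirpa against -4.81 for the scramblase gene Xkr9 and -3.87 for P2ry2. The vitamin K, shedding and signalling list had 1 gene higher (Vkorc1l1, 0.57) and 8 lower (Nqo1, -2.16, and Adam17, a protease that sheds MERTK, -1.26), and the lipid sensing and digestion list had 1 higher (Rubcn, 0.47) and 9 lower (Nr1h3, -3.40, and Ppard, -2.45).

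The genes whose pattern was most like each TAM kinase were sought over the 12 arrays after the mean of each tissue was subtracted, among 11067 genes with a mean log2 signal of at least 5. The closest to Mertk were Iqgap2 (Pearson r = 0.865), Specc1l (0.860) and Kmt5b (0.855), and the closest to Tyro3 were Igsf9b (0.902), Pdzrn3 (0.878) and Tshz2 (0.857). The closest to Axl were Chga (0.964), Chgb (0.959) and Ptov1 (0.954), but over the 6 hippocampus arrays Chga and Chgb had r of -0.24 and -0.31 with Axl, so that the likeness rested on the ileum arrays, where C09 and F09 stood low. These correlations describe arrays that share tissue, genotype and composition, and they are the highest of many.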

How the data were processed

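RNA of hippocampus and ileum was hybridised to Affymetrix Mouse Gene ST arrays, 3 per genotype and tissue. The deposited values are log2 signals that the authors derived from scanned arrays by RMA (robust multi-array average) in R, with a version not given in the sources used here, as is whether both tissues were normalised together. They range from 0.50 to 12.99. No detection call came with them, so dim signals were kept. Gene names came from the platform annotation, and 21218 of 35556 transcript clusters had a single symbol and were tested, and neither the 1881 clusters naming several genes nor the 12457 naming none entered a test.

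Genotypes were compared within each tissue, and tissues and the interaction in a fit of all 12 arrays, using lmFit and eBayes of limma 3.58.1 (R 4.3.3), with Benjamini-Hochberg adjustment over all tested clusters, a threshold of 0.05 and no covariate. Confidence intervals are at 95%. The fits were tested on simulated data. The 10 genes, the lists and the tests were chosen with earlier results of these data known. Of 128 genes in the 8 clearance lists, 10 had no cluster of their own. Named were all 10 genes and, per list, up to 4 genes past the threshold between genotypes (if none, the 1 of largest change) and the 2 largest tissue differences in each direction in FIRE +/+ mice; Itgb5 was described further, and Cr2, Xist and Eif2s3y were added, after their values were seen. Promoter windows came from RefSeq (GRCm38.p6) for 9 of the 10 genes, and the motifs were chosen after the sequences were seen. The alternatives were another variance model, one-way analysis of variance (the study's tables name an analysis of variance), a second quantile normalization, median centring, all clusters, a filter on dim clusters, a shared fit, labelled sex, weighting of arrays, the code number in the titles, and leaving out arrays.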

Additional observations from a re-analysis of the deposited data

Results flagged for a closer look

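Groups held 3 arrays, too few to test for an array far from its group. Of the genes named, 5 had a genotype difference that differed between the tissues by limma's interaction test over all clusters, in a fit of 12 arrays. The hippocampus difference minus the ileum difference was -3.92 for Csf1r (adjusted p = 0.000758), -2.27 for Trem2 (adjusted p = 0.000317), -2.29 for Tyrobp (adjusted p = 0.00805), -2.69 for C1qa (adjusted p = 0.0121) and -3.10 for Cx3cr1 (adjusted p = 0.0107). With 1 array left out, in 12 fits, the C1qa call was lost in 3 (highest adjusted p = 0.0580) and the Cx3cr1 call in 1 (0.0503), while without moderation Tyrobp, C1qa and Cx3cr1 were not called. Over all clusters the number lower in this test was 19 as reported and ranged over 12 to 41 with 1 array left out. None of the 10 clearance genes was called in this test. Trem2 was dim in ileum of both genotypes, where a fall would be understated. C1qb and C1qc had values of the same size, -3.12 and -3.19, and missed the threshold at an adjusted p of 0.0503 each.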

How the results depend on the processing

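No paired analysis was possible because the titles carry no replicate numbers that groups share, and the numbers used here were given in accession order. No result reversed. The count of the 10 genes past the threshold stayed at 0 in both genotype comparisons and in the interaction under every alternative, and between tissues it ranged over 5 to 7 (6 as reported) in FIRE -/- and 6 to 8 (7 as reported) in FIRE +/+ mice. Of 973 values of single clearance genes under alternatives, 959 kept their side of the threshold, and the other 14 belonged to Itgav, Mfge8 and Lrp1 between tissues. With 1 array left out the Mertk difference in hippocampus ranged over -0.36 to -0.22 and the Gas6 difference in ileum over -0.34 to -0.22, and no such fit called either. Of the 12 list genes that fell in FIRE -/- hippocampus, 4 passed by the analysis of variance without moderation and 7 in the fit of all 12 arrays, where the cause was not tested, and 9 to 11 passed with 1 array left out. Only 5 of the 12 had a mean of at least 5, and all 5 passed in that filtered set. Over all clusters the number lower in FIRE -/- hippocampus was 95 as reported, 24 by the analysis of variance, 34 in the filtered set, 41 in the 12-array fit and 62 when the code number was a block. The number higher was 0 as reported and ranged over 0 to 4 with 1 array left out. The alternative of another cluster of the same symbol could not be run, since each of the 10 genes had 1 cluster. The number of arrays, signals below every array median, and lymphoid content of ileum pieces limit these data. Such dim signals include Timd4 in hippocampus, Megf10 in ileum and 10 named list genes of the tissue comparison. In FIRE -/- hippocampus they include Csf1r, Tyrobp, Havcr2, Dock2, Rac2, P2ry12 and P2ry6.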
